A study of Caenorhabditis elegans with 2 samples.

Results

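The 50 genes described here encode transcription factors that set cell fates in the *Caenorhabditis elegans* embryo, from the Hox genes of the body axis to selectors of single neuron types. They were taken by name from a list that was chosen with earlier results of these data known. All were found among the 19973 protein-coding genes of the nuclear chromosomes. By lineage they were grouped as 6 Hox, 7 endoderm, 5 pharynx, 4 muscle, 7 epidermis and 21 neuronal genes. The binding data were chromatin immunoprecipitation and sequencing (ChIP-seq) peak lists for ztf-23, a zinc finger gene tagged at its own locus. The series had 1 group of 2 biological replicates of 1 strain, RW12279, with the CRISPR insertion st12279[ztf-23 ::TY1::EGFP::3xFLAG] on chromosome I. Whole midembryonic worms, collected by egg bleaching with a labelled age of 1.5 hours, were precipitated with an antibody to GFP, so signal is a mean over all cells of the embryo and binding in a few cells of 1 lineage may not be seen. There is no second condition, and the expression of the 50 genes was not measured, so the label of the list rests on textbook roles and not on these data.

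In the worm embryo, maternal factors such as SKN-1 and PAL-1 start lineage programmes in early blastomeres. GATA factors then commit the gut and the epidermis, FoxA commits the pharynx, MyoD-related and SRF-related factors act in body wall muscle, and proneural bHLH and homeodomain factors specify neurons. Such genes are mostly active in few cells at a time, and their regulatory DNA commonly lies in long upstream regions and introns.

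None of the 50 fate regulators had a ztf-23 peak summit in its promoter, and 3 had one anywhere within 2000 bp of the start or inside the gene. A promoter here is the 500 bp upstream of the annotated start, and the peaks are the 2213 nuclear peaks of the combined list that the authors named conservative. Over all protein-coding genes 932 of 19973 (4.67%) had a promoter summit, a share that would correspond to 2.33 genes among 50. The 0 of 50 allows a share of up to 6.0% (3 genes of 50), and the exact 95% Clopper-Pearson interval reaches 7.11%, so it is not distinguishable from 4.67% with a list of this length. In the wider window, elt-6, hlh-2 and nob-1 had a summit, 6.0% of the members (exact interval 1.25 to 16.5%) against 12.2% of protein-coding genes. This interval also holds the background share. By a further measure, in which the start of a gene is the nearest start of any gene within 1000 bp of a summit, elt-6 alone was called (1 of 50, 2.00%, against 4.17%). No test of the list was made. The list was chosen with earlier results of these data known, and the intervals do not cover that choice.

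**Figure D1:**
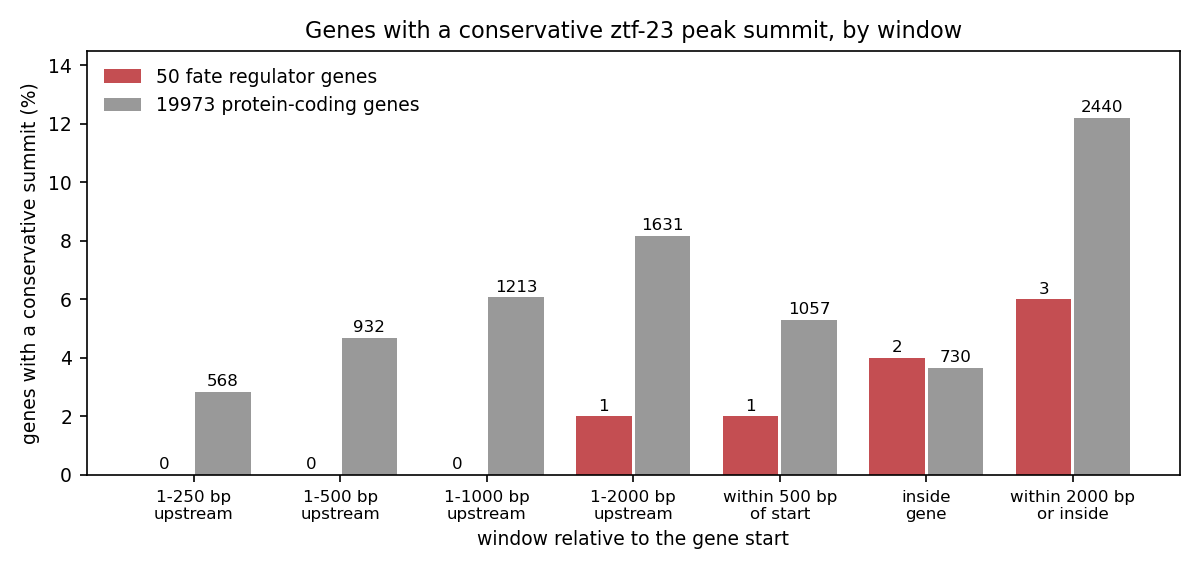
Share of genes (%, bars) with a conservative peak summit in each of 7 windows around the gene start, for the 50 fate regulators and for all 19973 protein-coding genes, with the number of genes above each bar. No member had a summit in the 1000 bp upstream, and inside genes the share of the members (4.0%) was close to that of all genes (3.65%).

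Other windows and stricter or looser lists were also tried, and each count is given with the share of protein-coding genes. In promoters 0 members had a summit with 250 bp upstream (2.84% of protein-coding genes), 1000 bp upstream (6.07%), any annotated transcript start (5.11%) or any overlap of the peak in place of its summit (5.45%). With 2000 bp upstream hlh-2 was called (8.17%), and with 500 bp on either side of the start elt-6 was (5.29%). With the 500 strongest peaks (1.56%), with a score of 1000 (3.77%), and with the own list of replicate 2 (3.18%) or replicate 1 (2.49%) alone the count was 0.

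In the wider window elt-6, hlh-2 and nob-1 were also called from any transcript start (12.4%) and by any overlap of the peak (12.9%). With 1000 bp around the start or inside the gene elt-6 and nob-1 were called (9.57%), and with 2000 bp around the start alone elt-6 and hlh-2 (10.4%). The other combined list called 6 members, with egl-5, egl-18 and vab-7 added, a share near the background (12.0% against 13.2%). The own list of replicate 2 called egl-5, nob-1 and unc-120 (7.34%) and that of replicate 1 called 0 (5.84%), so no called member was found in both. A score of 1000 left hlh-2 (9.02%) and the 500 strongest peaks left 0 members (3.62%). For the nearest start, elt-6 was the single call from protein-coding starts alone (5.37%) and from the other combined list (4.49%). The count was 0 for the 500 strongest peaks (1.04%), a score of 1000 (3.05%), and the own lists of replicate 2 (2.48%) and replicate 1 (1.87%).

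The absence at promoters was the same in all 6 lineages, and each lineage is too short to set it apart from other genes. The 6 Hox, 7 endoderm, 5 pharynx, 4 muscle, 7 epidermis and 21 neuronal genes had 0 promoter summits each. At 4.67% these lists would hold from 0.187 genes (muscle) to 0.980 genes (neurons) with a promoter summit, so 0 was the nearest whole number for the 5 shorter lists. The exact interval for a count of 0 reaches 16.1% for the neuronal list and 60.2% for the muscle list. In the wider window 1 Hox gene (nob-1), 1 epidermal gene (elt-6) and 1 neuronal gene (hlh-2) had a summit, and no endoderm, pharynx or muscle gene did. At the background share of 12.2% the lists would hold 0.733 Hox, 0.855 endoderm, 0.611 pharynx, 0.489 muscle, 0.855 epidermal and 2.57 neuronal genes. These counts therefore do not set the lineages apart from each other or from other genes.

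The DNA under the elt-6 and nob-1 summits is shown with that of members' regions that fell below the conservative threshold, so that both kinds can be read side by side. The peaks at hlh-2, the other called member, were left out of this comparison. Each line gives 201 bases of ce11 centred on the summit, on the strand of the gene, with the central 21 bases in capitals.
elt-6 summit: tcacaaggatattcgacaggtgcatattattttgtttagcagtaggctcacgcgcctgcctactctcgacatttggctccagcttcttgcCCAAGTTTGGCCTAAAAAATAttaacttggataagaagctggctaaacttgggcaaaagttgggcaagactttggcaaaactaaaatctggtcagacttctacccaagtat
nob-1 summit: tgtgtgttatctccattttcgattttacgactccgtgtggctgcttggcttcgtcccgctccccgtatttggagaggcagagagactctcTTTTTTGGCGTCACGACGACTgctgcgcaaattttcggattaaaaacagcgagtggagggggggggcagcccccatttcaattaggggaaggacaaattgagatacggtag
elt-6 promoter region: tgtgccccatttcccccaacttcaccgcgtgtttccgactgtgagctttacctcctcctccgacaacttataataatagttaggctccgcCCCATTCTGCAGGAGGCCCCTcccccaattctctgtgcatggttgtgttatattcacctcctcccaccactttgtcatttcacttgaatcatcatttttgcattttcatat
unc-30 promoter region: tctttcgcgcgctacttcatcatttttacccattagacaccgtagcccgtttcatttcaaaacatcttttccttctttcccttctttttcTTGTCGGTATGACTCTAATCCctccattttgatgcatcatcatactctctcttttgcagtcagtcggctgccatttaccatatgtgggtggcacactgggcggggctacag
pha-4 promoter region: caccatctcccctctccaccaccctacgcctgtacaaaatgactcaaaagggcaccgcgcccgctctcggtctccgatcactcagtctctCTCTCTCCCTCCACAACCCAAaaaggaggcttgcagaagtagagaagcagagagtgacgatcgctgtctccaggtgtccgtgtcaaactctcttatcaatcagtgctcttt
vab-7 strongest region: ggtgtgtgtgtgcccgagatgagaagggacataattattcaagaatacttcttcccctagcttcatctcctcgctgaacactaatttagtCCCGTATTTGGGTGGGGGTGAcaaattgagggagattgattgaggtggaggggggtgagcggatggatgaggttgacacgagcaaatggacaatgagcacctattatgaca
The elt-6 stretches lie at chrIV:1918099-1918299 and chrIV:1917557-1917757, and that of unc-30 at chrIV:13118835-13119035, all on the plus strand. The nob-1 stretch is the minus strand of chrIII:12082143-12082343. Those of pha-4 and vab-7 are the plus strand of chrV:20752633-20752833 and chrIII:10921738-10921938. The stretch at the elt-6 summit differed from the other 5 in that it was repeated elsewhere in the genome. Of its 177 overlapping words of 25 bases, 60 occurred more than once on the nuclear chromosomes, the most frequent 17 times, while no word of the other 5 stretches occurred more than once. It also held an exact inverted repeat of 12 bases, ttgcccaagttt with its reverse complement further along, against 6 or 7 bases in the other 5. How reads that map to several places were treated is not given in the sources used here, and the part of the repeat in the elt-6 peak was not tested.

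At elt-6, one of a pair of neighbouring GATA factor genes of the epidermal seam cells, the summit lay inside the gene, in an intron 222 bp downstream of the start. The peak (chrIV:1918027-1918370) had a score of 890, where scores run to 1000, rise with reproducibility between replicates and start at 830 in the conservative list. Its signal, the peak caller's own value on a scale that is not stated, was 114 and ranked 1455 of 2213 nuclear peaks. In the replicates' own ranked lists the signal was 45.0 in replicate 1 and 57.0 in replicate 2, and neither replicate's own thresholded list held it. A separate region 320 bp upstream of the elt-6 start had a signal of 78.3 and a score of 718. That region passed the threshold in the other combined list, with a score of 842, which made elt-6 the single member with a promoter summit there (2.00% against 4.82% of protein-coding genes). It lies at the end of egl-18, the GATA gene upstream, 15335 bp from the egl-18 start, so it falls in the windows of both genes and was nearest to elt-6.

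At hlh-2, which encodes the class I bHLH partner of the proneural factors (the worm E protein), a pair of overlapping peaks lay upstream, beyond the promoter window. Their summits were 1094 and 1351 bp from the start on chromosome I (peaks chrI:7194842-7195185 and chrI:7195099-7195442). Both had the highest score, 1000, but signals of 135 and 39.9, which ranked 991 and 2112 of 2213. Both overlapped the same region in each replicate, with signal 60.9 in replicate 1 and 67.6 in replicate 2, so they stand for 1 place and not for 2. The other combined list held only the first of them. No gene start was nearer to either summit than that of hlh-2, and neither replicate's own thresholded list held the place.

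At nob-1, a posterior Hox gene of the Abdominal-B type, the summit lay in an intron 2073 bp downstream of the start (chrIII:12082071-12082414, score 976, signal 117, rank 1383 of 2213). The signal was 49.6 in replicate 1 and 58.4 in replicate 2, and this was the only one of the called places in a replicate's own thresholded list, that of replicate 2. The nob-1 start was itself the nearest start of any gene. The neighbouring php-3, the other Hox gene of this pair, had no summit in its window and its nearest one, 4687 bp upstream of its start, was the nob-1 summit. None of the 4 peaks at members was near a tRNA, snoRNA or snRNA gene, and none reached the 500 strongest.

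**Figure D2:**
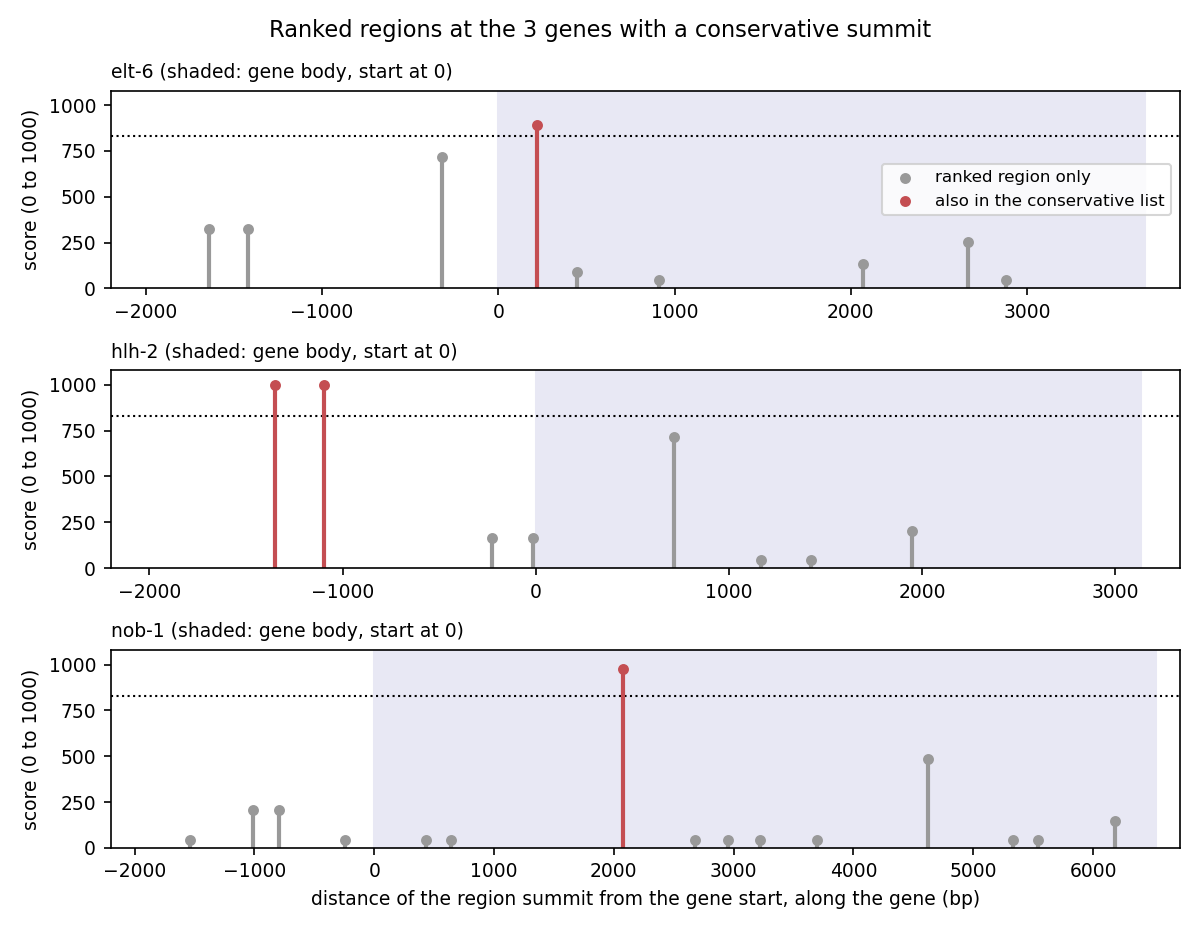
Regions of the combined ranked list at elt-6, hlh-2 and nob-1, each drawn at its summit's distance from the gene start (bp, x axis) with its score (0 to 1000, y axis), the gene body shaded and the dotted line at 830. At elt-6 and nob-1 the region in the conservative list lies inside the gene (222 and 2073 bp downstream), and at hlh-2 both lie upstream (1094 and 1351 bp).

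Because member genes are long, their windows offered more room than those of most genes. The median gene length was 3760 bp for members against 2027 bp for all protein-coding genes, and the median window 5760 bp against 4027 bp. Among the 4790 protein-coding genes with windows at least as long as the median member's, a set chosen after seeing the data, 20.1% had a summit in the window. Per length, the members' merged windows held 4 summits in 0.336 Mb, or 11.9 summits per Mb, against 22.5 per Mb over the windows of all protein-coding genes. The 4 summits stand for 3 places, and a count so small carries a wide counting error.

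The members also differ from most genes in how they are arranged. Only 4 of 50 (8.0%), elt-7, unc-3, unc-86 and tbx-38, had the start of a protein-coding gene on the opposite strand within 2000 bp upstream, against 27.8% of protein-coding genes. Promoter summits were found at 9.82% of such divergent genes and at 2.68% of all others. Read by arrangement, the background share would correspond to 1.62 members with a promoter summit, in place of 2.33. In the same way 3 members (6.0%) had the end of a same-strand gene within 500 bp upstream, against 18.1% of protein-coding genes. The median G+C content of the 300 bases around the start (250 upstream, 50 downstream) was 42% in members and 34.3% in all protein-coding genes.

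The ranked lists extend below the conservative threshold and also hold the regions above it. In them the median best score of the members was lower or higher than that of all genes, depending on the list. The combined ranked list holds 104781 nuclear regions, and 43 of the 50 members had a region with its summit in their window. The strongest of these by score had a median score of 289 over the 43 genes, against 314 over the 15762 protein-coding genes with a region. The order turned with the other combined ranked list (406 against 342), with any overlap of the region in place of its summit (332 against 325) and with the own ranked list of replicate 2 (146.5 against 104), and not with that of replicate 1 (56 against 67). The median signal was 65.5 against 63.4. Protein-coding genes with windows at least as long as the median member's had a median best score of 456 and a median signal of 74.2. Both are above the members' values, but the median window of that set, 8000 bp, is longer than the members', so it is not matched. A score of at least 830 was reached by 3 members (6.0%), again elt-6, hlh-2 and nob-1, against 12.4% of protein-coding genes. As 830 is the lowest score in the conservative list, this largely repeats the conservative call and is no separate result. In promoters, 27 members had a region (54.0%, against 44.9%), with a median best score of 146 against 133. In the set with long windows 54.1% had a promoter region, with a median best score of 143. The 23 with no region in the promoter were the Hox genes ceh-13, egl-5 and mab-5, the endoderm genes end-1, end-3, med-1 and med-2, the pharynx genes ceh-22 and tbx-37, the muscle genes pal-1 and unc-120, the epidermal genes egl-18, elt-1, elt-3 and lin-26, and 8 neuronal genes, ast-1, egl-43, hlh-14, lin-11, mec-3, ngn-1, ttx-3 and vab-3.

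**Figure D3:**
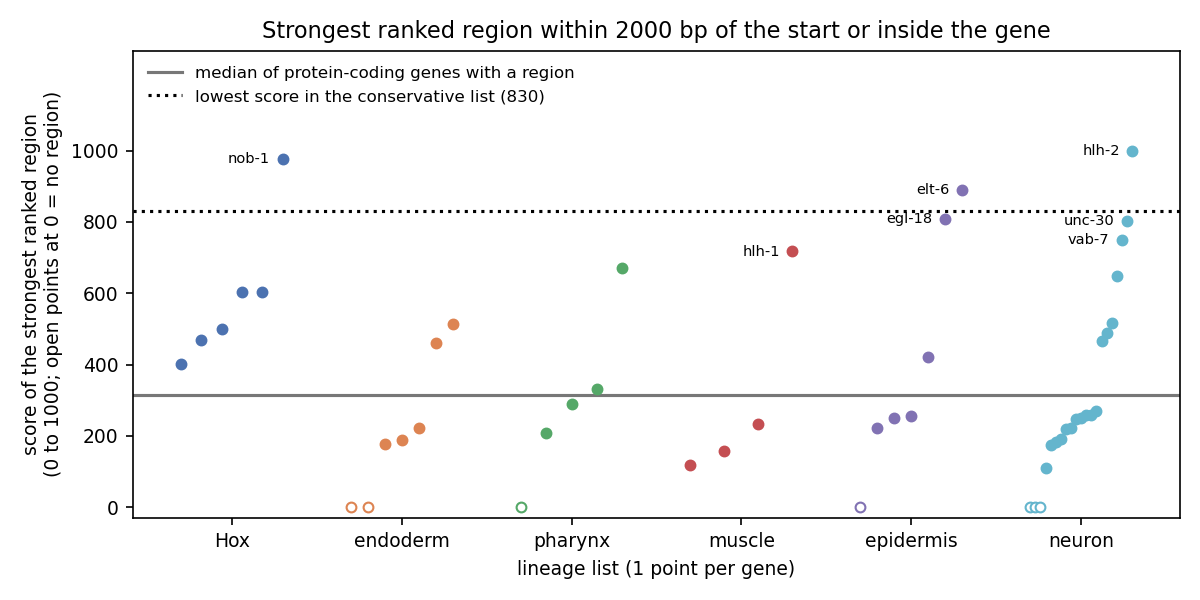
Score of the strongest ranked region within 2000 bp of the start or inside the gene for each of the 50 members (1 point per gene), by lineage, with open points at 0 for the 7 genes that had no region. The members above the dotted line at 830 are nob-1 (976), elt-6 (890) and hlh-2 (1000), and the 6 Hox genes, from 402 to 976, all lie above the line at 314, the median of the protein-coding genes that had a region. The median of protein-coding genes with windows at least as long as the median member's, not drawn, was 456, above the lowest Hox gene.

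Among the Hox genes, all 6 had a region and the best scores ran from 402 to 976 with a median of 551. After nob-1 came lin-39, the mid-body Hox gene, with 604 at 1766 bp downstream of the start (signal 37.5 in replicate 1 and 44.8 in replicate 2), and php-3 with 602 (signal 35.5 and 49.1). The median Hox window, 6932 bp, was longer than that of all protein-coding genes, so the lineages do not offer regions equal room. The posterior gene egl-5 had 500, the anterior gene ceh-13 had 468 and mab-5 had 402. Among protein-coding genes with windows at least as long as the median member's the median was 456, so mab-5 was below it and ceh-13 close to it. At egl-5 the region 1884 bp upstream had a combined signal of 117, as high as that of the nob-1 peak, but 31.6 in replicate 1 against 72.6 in replicate 2. The egl-5 region was in the own thresholded list of replicate 2 (score 856) and in the other combined list (score 907), and not in the conservative list. Its summit was nearer to the start of another gene, C08C3.11. In the promoters of Hox genes the best scores were 252 at lin-39, 102 at php-3 and 45 at nob-1, the lowest score in the list, where the median of protein-coding genes with a promoter region was 133, and there was no region at ceh-13, egl-5 or mab-5.

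Of the 7 endoderm genes, 5 had a region, with scores from 178 to 514 and a median of 222. The maternal factor gene skn-1 had 461 in its gene body, 2731 bp downstream of the start. Of the GATA-type genes that specify the endoderm, end-3 had 187 and end-1 had no region, and med-1 had 178 while med-2 had none. The med genes are near-identical copies, so reads may not be assigned to 1 of them with certainty. The part of this in the scores was not tested. The stretch without a region around the med-2 start was 19087 bp long, and the gene itself 525 bp. Of the gut differentiation genes, elt-7 had 514, in its promoter 360 bp upstream of the start and with signals of 43.1 in replicate 1 and 36.7 in replicate 2, and elt-2 had 222. Conservative summits lay 2938 bp upstream of the end-3 start and 3261 bp downstream of the med-2 start, just outside the window.

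In the pharynx list the FoxA gene pha-4 led. It had 670 at 869 bp downstream of the start, with signals of 35.8 in replicate 1 and 62.7 in replicate 2, and 588 in its promoter. The T-box genes tbx-2, tbx-37 and tbx-38 had 332, 289 and 207, and ceh-22, an NK-2 homeobox gene of pharyngeal muscle, had no region. In the muscle list the MyoD gene hlh-1 had 717, at 1977 bp upstream with signals of 41.2 and 47.9 in replicates 1 and 2. The HAND gene hnd-1 had 234, the caudal gene pal-1 had 158 and the SRF-related gene unc-120 had 117. A summit 1167 bp inside unc-120 was in the own thresholded list of replicate 2 (score 862, signal 66.3), and no region of the ranked list of replicate 1 overlapped it. This summit was nearer to the start of another gene, D1081.17, 162 bp away.

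The other epidermal genes were below elt-6. The largest of them, egl-18, had 809 at 12674 bp downstream of its start, inside its 15519 bp gene body, with signals of 42.3 in replicate 1 and 54.5 in replicate 2. The nuclear receptor genes nhr-23 and nhr-25, which act in molting and epidermal development, had 420 and 249. The GATA gene elt-1, which commits cells to the epidermis, had 257 and lin-26, a zinc finger gene that maintains epidermal fate, had 223, while elt-3 had no region.

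The neuronal list had the widest range, from 109 to 1000 with a median of 258.5 over 18 genes. After hlh-2, the highest were unc-30, the homeobox selector of GABA neurons, with 803, vab-7, the even-skipped gene, with 750, and ast-1, an ETS gene of dopamine neurons, with 647 (signal 37.7 in replicate 1 and 47.9 in replicate 2). The unc-30 region was the strongest promoter region of any member, 42 bp upstream of the start, with signal 58.6 in replicate 1 and 44.9 in replicate 2. The vab-7 region, 1494 bp inside the gene, passed the threshold in the other combined list (score 908). Next were vab-3, the Pax6 gene, with 516, the POU gene unc-86 with 488 at 105 bp upstream, and sox-2 with 467. The remaining neuronal genes with a region were at 271 or below, among them lin-11, hlh-3, ngn-1, egl-43, unc-42, unc-4, unc-3, cnd-1, che-1 and ceh-10, with lin-32, the atonal gene, lowest at 109. No region was listed for hlh-14, mec-3 or ttx-3.

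The 7 members with no ranked region (end-1, med-2, elt-3, ceh-22, hlh-14, mec-3 and ttx-3) lay in stretches where the list holds nothing. Neighbouring region summits were 597 bp apart at the median, yet 1205 gaps of more than 10000 bp summed to 24.8 Mb. Such a gap held the starts of 12 members (24.0%), all 7 of these among them, and of 28.0% of protein-coding genes. The share of genes with no region was 14% in members and 21.1% in protein-coding genes. Among protein-coding genes with windows at least as long as the median member's it was 9.75%. The other 5, hlh-3, lin-11, mab-5, unc-120 and vab-3, started in a gap but had a region elsewhere in their window. The gap at unc-120, 25686 bp long, held the peak of replicate 2's own thresholded list given above (score 862, signal 66.3). A gap in the combined list can thus hold a peak of 1 replicate. Whether signal in the gaps was low was not tested. Among genes with a region in the window, 6.98% of members and 15.5% of protein-coding genes had a conservative summit.

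Signal at the members' strongest regions was compared between the replicates. A region of replicate 1 overlapped the strongest combined region at 36 members, and one of replicate 2 at 33, with both at 26. Over these 26 genes the signal ran from 22.7 to 60.9 in replicate 1 (median 36.6) and from 23.9 to 72.6 in replicate 2 (median 45.1), and it was higher in replicate 2 at 18. Spearman's rho between the replicates was 0.217 and Pearson's r 0.277 across these 26 genes, which share both libraries. Both are given as a description. Over the 2189 conservative nuclear peaks found in both replicates, which cover a far wider range of signal, rho was 0.66. The median ratio of replicate 2 to replicate 1 was 1.21 at the members and 1.19 at those peaks. The lists were scored separately, so the difference in level carries any difference in depth, which is not given in the sources used here. No strongest region of a member was in the own thresholded list of replicate 1, and 2 (egl-5 and nob-1) were in that of replicate 2.

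**Figure D4:**
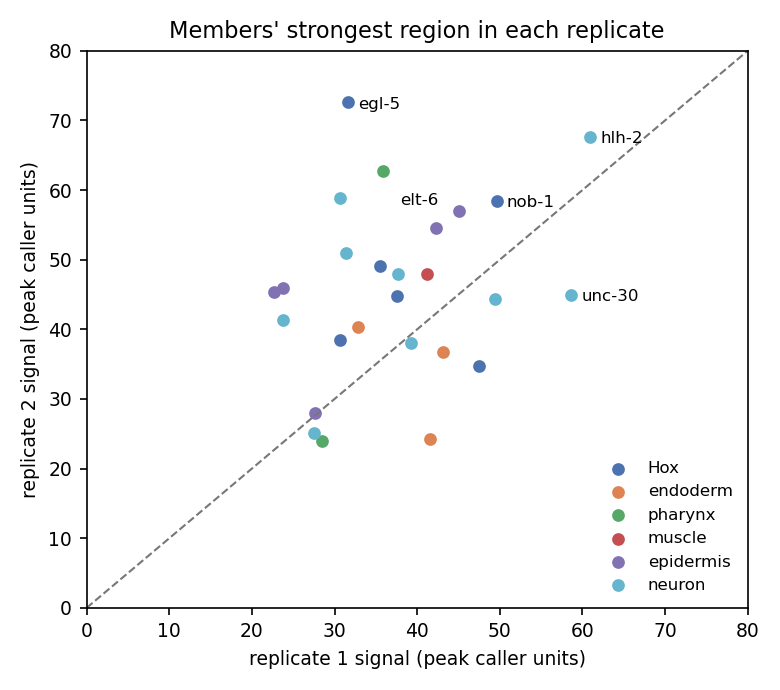
Signal of the strongest combined region of each member in replicate 1 (x axis) and replicate 2 (y axis), in the peak caller's units, for the 26 members found in both ranked lists, coloured by lineage, with the dashed line at equal values. The points for hlh-2 (60.9 and 67.6) and nob-1 (49.6 and 58.4) are high in both replicates, and egl-5 (31.6 and 72.6) in replicate 2 alone.

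Distances to the nearest conservative summit were not longer than those of other genes. The median distance from a member's start was 14224 bp, against 19197 bp for all protein-coding genes, and 18 members (36%) had a summit within 10000 bp, against 32.3%. By lineage the medians were 9514 bp for Hox, 9855 bp for pharynx, 10871 bp for epidermis, 13251 bp for neurons, 23218 bp for endoderm and 51278 bp for muscle. All 4 muscle genes were at least 40720 bp from a summit, and elt-1 was the farthest member at 137242 bp. The nearest summits outside the windows were at 2855 bp (lin-32), 2938 bp (end-3), 3261 bp (med-2), 3599 bp (unc-30) and 3653 bp (che-1).

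**Figure D5:**
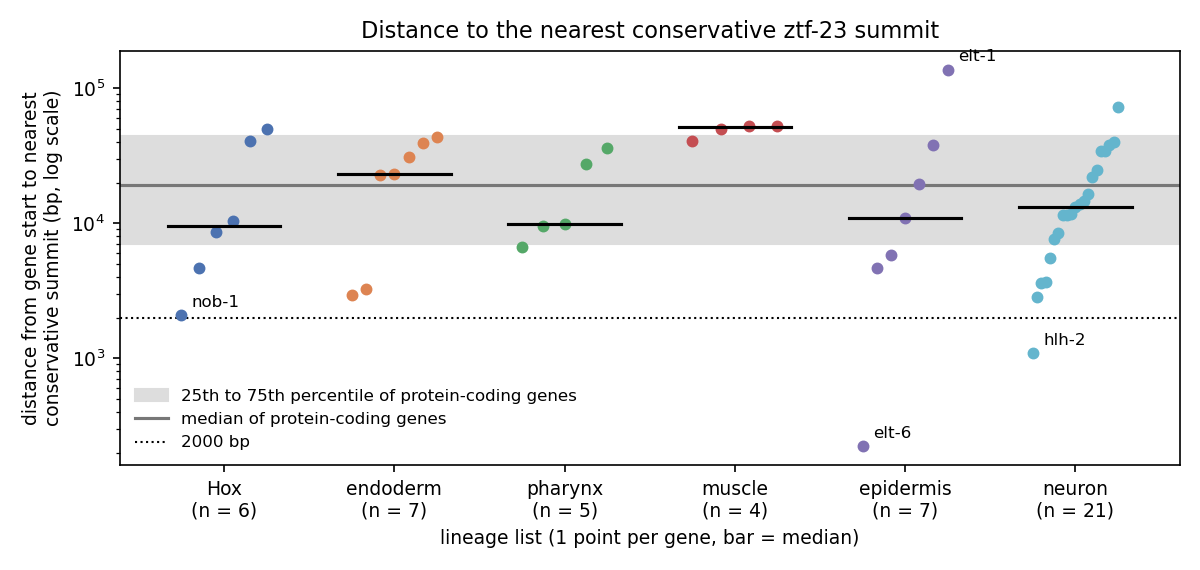
Distance (bp, log scale) from each member's start to the nearest conservative summit, by lineage, with the median of each list as a black bar and the median (19197 bp) and the 25th to 75th percentile of all protein-coding genes in grey. The points of elt-6 (222 bp) and hlh-2 (1094 bp) lie below the dotted line at 2000 bp, and the 4 muscle genes lie between 40720 and 52781 bp.

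Other embryonic regulators were counted in the same way. Of 63 genes that act beside the members (maternal and signalling genes, Hox cofactors and further tissue regulators), 0 had a promoter summit, where the background share of 4.67% would correspond to 2.94 genes. The exact interval reaches 5.69% and so holds that share. In the wider window 12 of them (19.0%, exact interval 10.2 to 30.9%) had a summit, against 12.2% of protein-coding genes. Their median window of 6142 bp was also longer than that of protein-coding genes. The one with a summit nearest to its start was ceh-20, the worm PBX cofactor of Hox proteins, 732 bp upstream (signal 134, score 1000). Its partner unc-62, the Meis homologue, had 3 summits in its window, the strongest 1777 bp downstream of the start with signal 107. The kinase gene lit-1 had 7 summits in its window. The strongest was 15760 bp downstream of the lit-1 start and nearer to that of another gene, W06F12.7 (3843 bp). The gene of the TCF factor of Wnt signalling, pop-1, had 1, which was 40 bp from the start of another gene, W03D8.13. By family name, 1 of 60 ceh homeobox genes that are not members had a promoter summit (ceh-27, 35 bp upstream, signal 106), 4 of 267 nuclear receptor genes did (nhr-1, nhr-41, nhr-47 and nhr-142), and 0 of 21 hlh and 0 of 16 tbx genes. The ceh and nuclear receptor shares, 1.67% (exact interval 0.0422 to 8.94%) and 1.50% (0.41 to 3.79%), stand below 4.67%. The ceh interval holds 4.67% and the nuclear receptor interval does not, with no test made. Of these nuclear receptor genes 16.9% were divergent, against 27.8% of protein-coding genes. Read by arrangement, the background would correspond to 10.4 of them, in place of 12.5. Over protein-coding genes the share also varied by chromosome, from 2.92% on V to 7.39% on III. The nhr-142 summit, 484 bp from its start, was nearer to the start of F44E7.9 (193 bp). The nhr-41 summit (signal 30.9), 320 bp from its start, was nearer to that of a pseudogene (200 bp).

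The shares of member promoters with the short words in largest excess under ztf-23 summits, against flanks, were near those of all promoters. The 6-base word with the largest excess, relative to its count, within 50 bp of the summits of 1869 nuclear peaks away from tRNA, snoRNA and snRNA genes, against equal windows centred 300 bp to either side, was GCGCAC, in 11.1% of summit windows and 1.77% of flanks. On either strand it was in 17.4% of the 300-base promoters of the 932 genes with a promoter summit, in 5.60% of all promoters and in 4 of 50 members (8.0%; ceh-22, mec-3, sox-2 and tbx-38). The words were chosen from these summits, so the share at genes with a promoter summit is no independent result. The next, GCGCGC, which can overlap the first, was in 13.2%, 3.58% and 1 of 50 (2.0%; unc-30). In the stretch printed above for unc-30 it is the single match to either word among the 6. None of the 5 members with a word had a conservative summit in its window.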

How the data were processed

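The 2 samples are biological replicates of 1 group. The authors deposited 8 lists of peaks, in ce11 coordinates per the labels, ranked or thresholded by IDR (irreproducible discovery rate), for each replicate and for both combined. The aligner, peak caller, settings and depth are not given in the sources used here. The signal value and the score from 0 to 1000 are the authors', as deposited. Mitochondrial peaks were left out.

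Genes came from annotation release 115 of WBcel235, the assembly of ce11, and sequences from RefSeq's copy of it; every region ended within its chromosome. A summit, not the whole peak, had to fall in a window. Replicate signals came from the strongest overlapping region of each replicate's ranked list. The strongest region of a gene was taken by score, then signal. Shares carry exact Clopper-Pearson intervals at 95%, which cover counting error only and treat genes as independent. No set test was made. Members and lists were chosen with earlier results of these data known. Genes were named by rule: every member with a conservative summit in its window, the 5 members with the highest ranked score and no such summit, members with no ranked region in the promoter, other fate regulators with a promoter summit, the nearest other gene of each summit, and all 50 members at least once in their lineage. No other regulator among the 63 met it, so those named were chosen after their values were seen. Window calls were tested on simulated data, the outcome of which is not given here. Alternatives were other windows, starts, lists and replicates. Python 3.11.15, pandas 2.3.3, numpy 2.4.6, scipy 1.17.1 and matplotlib 3.10.9 were used.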

Additional observations from a re-analysis of the deposited data

How the results depend on the processing

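Counts at members ran from 0 to 6 over the alternatives tried, and in some the share was near that of protein-coding genes. The count with a promoter summit, 0 of 50, was 1 with 2000 bp upstream (hlh-2), 1 with 500 bp on either side of the start (elt-6) and 1 with the other combined list (elt-6), and 0 without either replicate. The share of protein-coding genes with a promoter summit, 4.67%, was 2.84% with 250 bp upstream, 8.17% with 2000 bp, 1.56% with the 500 strongest peaks, and 2.49 to 3.18% with 1 replicate left out. The count in the wider window was 3 (6.0% against 12.2% of protein-coding genes). With the other combined list it was 6, with egl-5, egl-18 and vab-7 added (12.0% against 13.2%). Inside the gene alone it was 2 (4.0% against 3.65%). It was 0 with the 500 strongest peaks (against 3.62%) and 1 with a score of at least 1000 (hlh-2, 2.0% against 9.02%). Without replicate 2 it was 0 (against 5.84%). Without replicate 1 it was 3, egl-5, nob-1 and unc-120 (6.0% against 7.34%). The count of members nearest to a summit was 1 (2.0% against 4.17%). It was 0 with the 500 strongest peaks (against 1.04%) and 0 with a score of at least 1000 (against 3.05%). It was also 0 without replicate 1 (against 2.48%) and without replicate 2 (against 1.87%). The median best score, 289 against 314 over protein-coding genes, was 406 against 342 with the other combined ranked list and 332 against 325 with any overlap, so the order of members and background turned. It was 146 in promoters alone and 56 to 146.5 in the replicates' own ranked lists, whose scores are not on a shared scale with the combined list. Over protein-coding genes with windows at least as long as the median member's, the median best score was 456 in the main list. The causes were not tested. No paired analysis was possible because the series holds 1 group. Depth is unknown, so a summit missing at a member may be below detection.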
